A study of Mus musculus with 38 samples.

Results

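The TGF-beta superfamily genes described here were 41 of the 9890 genes measured by a named probe. They were all measured genes whose symbol in the array annotation starts with Tgfb, Bmp, Gdf, Acvr, Smad, Smurf, Ltbp, Inhb, Grem, Fst, Nog or Tgif, or is Id followed by 1 digit, with Tgfb1, Tgfbr2 and Tgfbi left out. A further 29 symbols of the role lists, Smad4, Smad7 and Nog among them, had no named probe in the normalized table and were not analysed here. That table was the submitters' own selection of probes, by a rule not given in the sources used here. The filter on low values applied to it afterwards removed 0 named probes, so all 41 passed. They comprised 10 ligands, 3 latent binding proteins, 9 receptors, 7 Smads, Smurfs and Tgifs, 4 extracellular antagonists, 4 Id genes and 4 others. These 4 others matched the name rule but were on none of the role lists. Of the 41 genes, 28 had a single probe.

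The study profiled total RNA of tumor or control tissue from 8-week-old C57BL/6 mice on 38 Illumina bead arrays. Titles call the samples of the B16 lines tumor microenvironment and the other 7 control tissue. Tumor tissue was taken at day 4 or day 14 after inoculation of a line of B16, a mouse melanoma. The shTGFb line, whose name denotes a short hairpin against TGF-beta, had 6 arrays at day 4 and 5 at day 14. The shVEGF line, named for a hairpin against VEGF, had 5 at day 4 and 6 at day 14, the wild-type line had 4 at day 4 and 5 at day 14, and control tissue had 7. The hairpins were in the inoculated cells while the tissue holds tumor and host cells together, and no line with a control hairpin is among the labels. Whether each array stands for its own animal is not stated in the labels, and the p-values here rest on the spread among arrays, which may be technical. The name of the shTGFb line does not say which TGF-beta isoform the hairpin targets. The excluded gene Tgfb1, which encodes 1 of the isoforms, averaged 9.12 ± 0.65 log2 intensity in shTGFb tissue (SD, n = 6) and 8.79 ± 0.15 in wild-type tissue (n = 4) at day 4. At day 14 it averaged 9.38 ± 0.56 in shTGFb tissue and 8.87 ± 0.78 in wild-type tissue (n = 5 each). The fitted differences of 0.32 ± 0.46 and 0.51 ± 0.46 (SE) were 0.37 ± 0.51 and 0.06 ± 0.52 without the 3 arrays described next, so no lower whole-tissue mean of Tgfb1 was measured on either day.

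On 3 wild-type arrays, day 4 array 4 and day 14 arrays 2 and 5, markers of host cells were near background, and these are called the host-poor arrays. The mean of 9 fibroblast markers was 4.77 to 4.90 log2 intensity on them and 9.58 to 12.26 on the other 35 arrays, and Col1a1, Dcn and Lum were not detected on any of the 3. The mean of 5 blood endothelial markers was 4.81 to 5.07 on the host-poor arrays and 8.29 to 10.16 on the others, and that of 5 macrophage markers 4.79 to 4.91 and 9.81 to 12.09. The mean of 9 melanocyte markers was 12.01 to 12.28 on the host-poor arrays and 5.17 to 12.57 on the others. Pigment genes were also high on arrays labelled control, whose melanocyte mean ran from 5.48 to 12.34 with a median of 10.99. Fewer cells of a type and less RNA per cell cannot be told apart in such tissue. The part of host-cell content in the differences was not tested. Fitted differences of shTGFb against wild type are given with all arrays first and then without these 3.

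Ligands of this superfamily are secreted dimers that bring type I and type II serine/threonine kinase receptors together. TGF-betas and activins signal mainly through Smad2 and Smad3, and bone morphogenetic proteins (BMPs) through Smad1 and Smad5, each with Smad4 as partner. Latent TGF-beta binding proteins tether the inactive ligand to the matrix, antagonists such as follistatin and gremlin trap ligands outside the cell, and the Id genes are classic targets of BMP Smads. In skin the pathway is known for roles in hair follicles, wound repair and fibroblast activation.

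Promoter sequence is shown for 3 genes on which the results turn. Gdf10 and Bmper were the ligand and the antagonist whose shTGFb and wild-type arrays did not overlap at day 4, and Id2 was the Id gene that was high on all 3 host-poor arrays. RefSeq, build GRCm38.p6, held a promoter for 30 of the 41 genes. Each run is the 250 bases before the annotated start, 5′ to 3′ along the gene's strand. Capitals mark the Smad-binding letters CAGAC or GTCTG, or the palindrome GGCGCC to which BMP Smads bind, both searched on both strands.
Gdf10, chr14:33923337-33923586 (plus strand): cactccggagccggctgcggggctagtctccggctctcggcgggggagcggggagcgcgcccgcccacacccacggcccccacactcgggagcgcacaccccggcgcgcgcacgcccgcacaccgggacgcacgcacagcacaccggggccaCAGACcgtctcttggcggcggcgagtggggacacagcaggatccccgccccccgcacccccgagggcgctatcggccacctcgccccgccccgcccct
Bmper, chr9:23222826-23223075 (plus strand): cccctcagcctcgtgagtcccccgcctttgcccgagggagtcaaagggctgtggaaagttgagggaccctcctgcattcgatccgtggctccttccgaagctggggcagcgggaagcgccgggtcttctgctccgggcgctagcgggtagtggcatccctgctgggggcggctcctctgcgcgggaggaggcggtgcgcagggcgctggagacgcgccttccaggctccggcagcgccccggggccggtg
Id2, chr12:25096093-25096342 (minus strand): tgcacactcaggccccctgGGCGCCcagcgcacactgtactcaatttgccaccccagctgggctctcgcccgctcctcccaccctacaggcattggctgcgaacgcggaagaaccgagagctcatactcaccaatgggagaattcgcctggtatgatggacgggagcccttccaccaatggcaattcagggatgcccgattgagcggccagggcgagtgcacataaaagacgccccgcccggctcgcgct
The CAGAC motif stood 1 time in the Gdf10 run, 98 bases before the start, and the GGCGCC motif 1 time in the Id2 run, 231 bases before the start. Bmper held neither set of letters. Of 32851 promoters of this length, 42.2% held CAGAC or GTCTG and 9.59% held GGCGCC, so a match is a description of these letters and no more.

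Across all 41 genes, the shTGFb tissue had higher fitted means than wild-type tissue for 26 genes at day 4, with a median log2 difference of 0.28, against a median of -0.06 over all 9890 genes. At day 14, 24 genes were higher and the median was 0.26, against -0.06 over all genes. No gene of the superfamily passed an adjusted p under 0.05 in limma on either day, and 0 of all genes (0%) did. At an unadjusted limma p under 0.05 there were 7 of 41 at day 4, where 8.2% of all genes reached it, and 5 of 41 at day 14, where 14.2% of all genes did. These counts rest on a variance shared by all 7 groups. When only the groups compared were fitted they were 9 and 0, with the share of all genes not counted. Without the host-poor arrays the day 4 median was 0.20 with 2 genes at that level (1.64% of all genes). The day 14 median was then -0.08, 15 of 41 genes were higher, and 0 genes of the superfamily were at that level (0.243% of all genes). Leaving out the host-poor arrays thus turned the direction of the day 14 median. Array weights, described below, gave medians of 0.02 at day 4, with 21 of 41 genes higher, and 0.27 at day 14, and weights estimated without the host-poor arrays gave 0.12 and 0.03. Scaling to the 75th percentile gave 0.15 and 0.07, and leaving out shTGFb day 14 array 4 alone gave 0.05 at day 14.

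**Figure D1:**
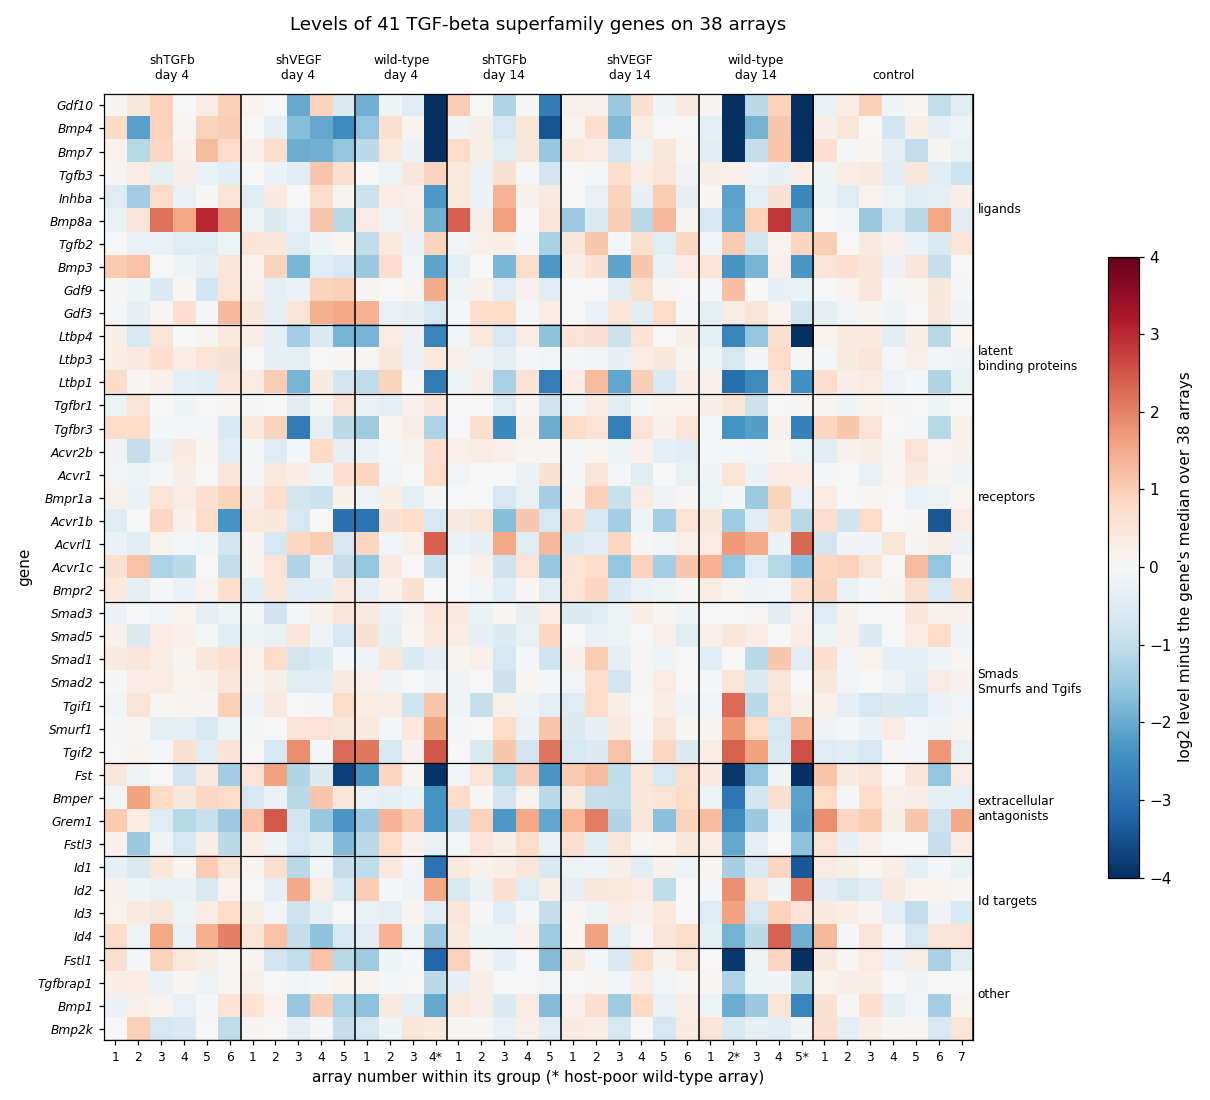
Each row is a gene, grouped by role, and each column an array, grouped by line and day. Color gives the log2 level minus that gene's median over 38 arrays, cut at 4 in each direction. The host-poor arrays, marked with an asterisk, show Gdf10, Bmp4, Bmp7, Fst and Fstl1 in deep blue.

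**Figure D2:**
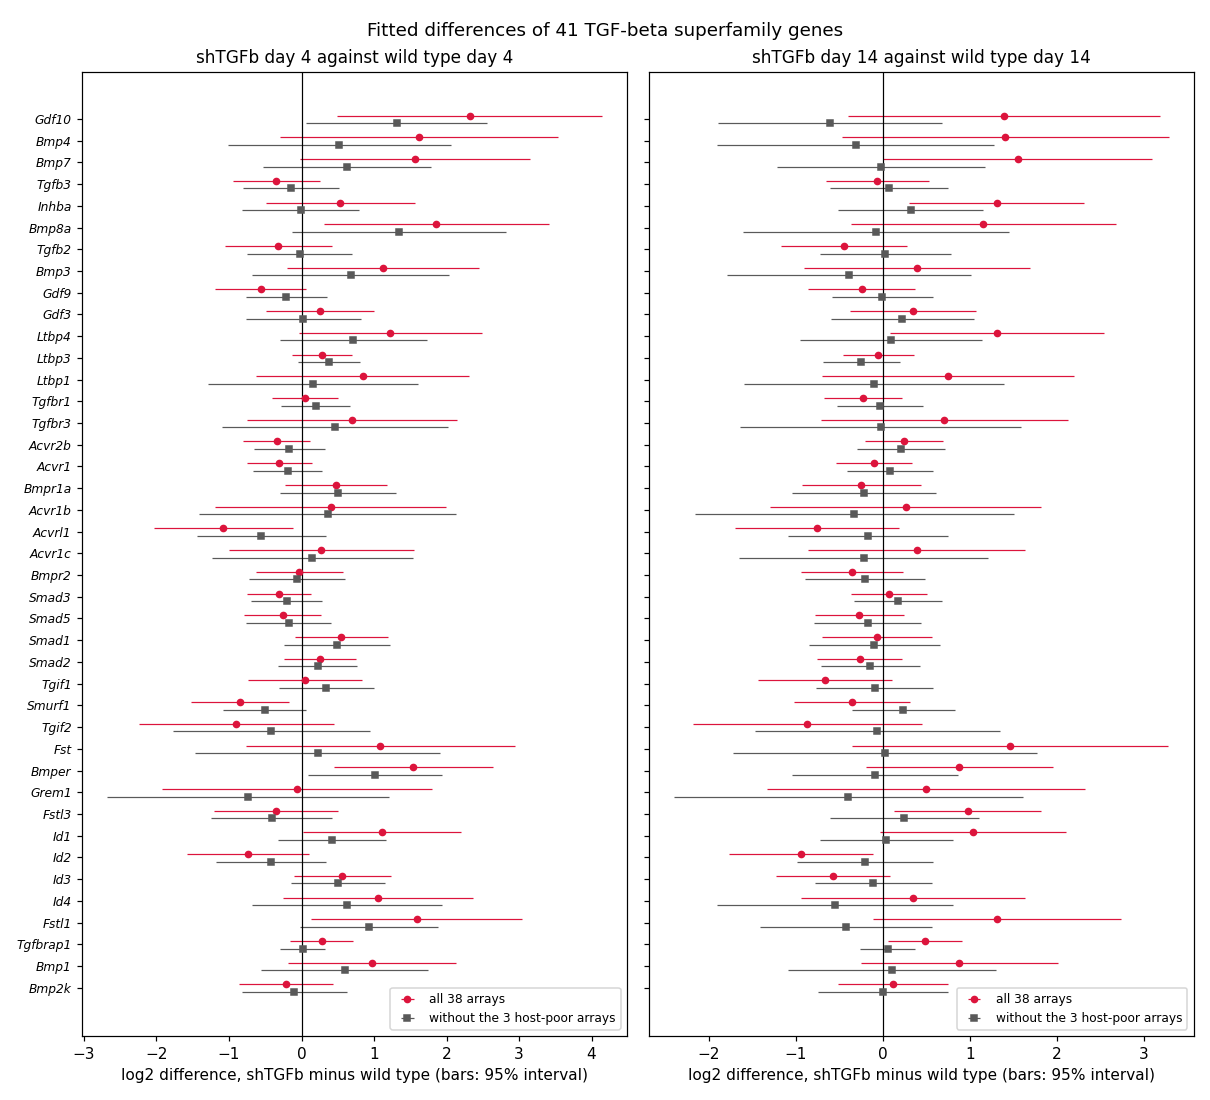
Points are fitted log2 differences, shTGFb minus wild type, for each of the 41 genes at day 4 (left) and day 14 (right), with 95% intervals. Red circles use all 38 arrays and gray squares leave out the host-poor arrays. At day 14 the gray squares lie between -0.61 and 0.32.

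Among the ligands, Gdf10, a relative of BMP3, had the largest fitted difference at day 4 with all arrays, and Bmp8a without the host-poor ones. Gdf10 had a lowest, median and highest level of 9.39, 9.75 and 10.31 log2 intensity on the 6 shTGFb arrays, against 7.46, 9.21, 8.86 and 4.47 on wild-type arrays 1 to 4. Every shTGFb array was above every wild-type array, also without the host-poor array 4, on which Gdf10 was not detected. The difference was 2.32 ± 0.90 (SE; limma adjusted p = 0.506) with all arrays and 1.31 ± 0.61 (limma adjusted p = 0.997) without the host-poor arrays. Gdf10, Bmper and Fstl1 were the 3 of 41 genes with no overlap at day 4, all higher in shTGFb tissue, where 0.394% of all genes were so placed. At day 14 Gdf10 read 10.35, 9.36, 8.18, 9.31 and 6.56 on shTGFb arrays 1 to 5, against 9.48, 4.35, 8.33, 10.29 and 4.38 on wild-type arrays 1 to 5. The groups overlapped, and the difference was 1.39 ± 0.88 with all arrays and -0.61 ± 0.63 without the host-poor arrays.

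Bmp8a, a BMP ligand also studied in germ cells and adipose tissue, had a lowest, median and highest level of 6.18, 8.15 and 9.45 on the shTGFb day 4 arrays, against 6.76, 6.30, 6.67 and 4.50 on the 4 wild-type arrays. Of the shTGFb arrays, 1 lay below 3 of the wild-type arrays, so the groups overlapped. The difference was 1.86 ± 0.76 (limma adjusted p = 0.506), and 1.34 ± 0.72 without the host-poor array. Bmp8a was also 1.79 ± 0.66 higher in shTGFb day 4 tissue than in control tissue and 1.67 ± 0.72 higher than in shVEGF day 4 tissue, both at adjusted p above 0.9 in limma (0.91 to 1.00). Its control arrays ran from 4.95 to 8.01 with a median of 6.00, and shVEGF day 4 arrays from 5.40 to 7.52. At day 14 the levels were 8.83, 6.69, 8.09, 6.42 and 6.91 in shTGFb tissue, against 5.77, 4.36, 7.35, 9.30 and 4.41 in wild-type tissue. The highest wild-type value, on array 4, was above all shTGFb values, and the difference was 1.15 ± 0.75 with all arrays and -0.08 ± 0.75 without the host-poor arrays.

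Bmp7, a BMP ligand with roles in epithelium, had a lowest, median and highest level of 7.36, 8.96 and 9.75 in shTGFb day 4 tissue, against 7.45, 8.91, 8.26 and 4.46 in wild-type tissue. Day 14 levels of Bmp7 were 9.27, 8.72, 8.02, 8.98 and 6.97 in shTGFb tissue, against 8.07, 4.44, 7.56, 9.61 and 4.55 in wild-type tissue. The differences were 1.56 ± 0.78 and 1.55 ± 0.76, and they were 0.62 ± 0.57 and -0.02 ± 0.59 without the host-poor arrays. The groups overlapped on both days. Bmp4, the BMP of the follicle's dermal papilla, followed the same layout, with differences of 1.62 and 1.41 that were 0.52 and -0.31 without the host-poor arrays.

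Inhba, the subunit of activin A, was at an unadjusted p under 0.05 at day 14, with 7.35, 6.68, 8.28, 7.08 and 7.26 in shTGFb tissue, against 6.99, 4.76, 6.53, 7.51 and 4.32 in wild-type tissue. The low wild-type values were the 2 host-poor arrays, and the difference was 1.31 ± 0.50 with them and 0.32 ± 0.41 without. At day 4 it was 0.53 ± 0.51, and -0.01 ± 0.40 without the host-poor array. The TGF-beta isoforms Tgfb2 and Tgfb3 were detected on all 38 arrays and behaved otherwise: on the host-poor arrays Tgfb2 was 7.30 to 7.49 and Tgfb3 7.65 to 8.34, above the medians of the other 35 arrays, 6.40 and 7.44. Tgfb2 differed by -0.32 at day 4 and -0.44 at day 14, and by -0.02 and 0.03 without the host-poor arrays. Tgfb3 differed by -0.35 and -0.06, and by -0.15 and 0.07 without them. Bmp3, a BMP family member found in bone, Gdf9, an oocyte factor, and Gdf3, a factor of early embryos, differed by 1.13, -0.56 and 0.26 at day 4 and by 0.39, -0.24 and 0.35 at day 14. Their values without the host-poor arrays were 0.68, -0.21 and 0.03 at day 4 and -0.39, -0.01 and 0.22 at day 14.

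The latent binding proteins were measured by Ltbp1, Ltbp3 and Ltbp4. Ltbp3, a secreted matrix protein, had its highest group mean in shTGFb day 4 tissue. Its lowest, median and highest levels were 10.52, 10.76 and 10.95 in shTGFb day 4 tissue, against 10.26, 9.93, 9.92, 10.30 and 10.37 in shVEGF day 4 tissue. All shTGFb arrays were above all shVEGF arrays, and Ltbp3 was the only 1 of 41 genes so placed (0.121% of all genes). The difference was 0.59 ± 0.19 (limma adjusted p = 0.906). Ltbp3 levels in shTGFb tissue at day 14 were 10.49, 10.15, 9.93, 10.22 and 10.17, all below the day 4 arrays, with a difference of day 14 against day 4 of -0.55 ± 0.19 (limma adjusted p = 0.893). It was the only 1 of 41 genes lower without overlap there (0.384% of all genes). Against wild-type tissue, which had 10.32, 10.74, 10.05 and 10.72 at day 4, the day 4 difference was 0.29 ± 0.20, and 0.38 ± 0.21 without the host-poor array. At day 14 wild-type tissue had 10.12, 9.64, 10.16, 11.04 and 10.25. The day 14 difference was -0.05 ± 0.20, and -0.25 ± 0.22 without the host-poor arrays.

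Ltbp4 read 10.73, 11.25, 10.17, 11.12 and 9.21 in shTGFb day 14 tissue, against 10.45, 8.19, 9.28, 11.48 and 6.54 in wild-type tissue. The groups overlapped, with the lowest values on host-poor arrays 2 and 5. The difference was 1.31 ± 0.61 (limma adjusted p = 0.338), and 0.10 ± 0.51 without these arrays. At day 4 Ltbp4 ran from 10.20 to 11.35 in shTGFb tissue, against 8.96, 11.15, 10.55 and 8.16 in wild-type tissue, and the groups overlapped. Ltbp4 then differed by 1.23 ± 0.62 and Ltbp1 by 0.84 ± 0.72, and without the host-poor array by 0.71 and 0.15. At day 14 Ltbp1 differed by 0.75 ± 0.71, and by -0.10 ± 0.73 without the host-poor arrays.

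Among the receptors, Tgfbr1, the type I receptor for TGF-beta, had a lowest, median and highest level of 10.43, 10.63 and 11.21 in shTGFb day 4 tissue, against 10.39, 10.24, 10.81 and 11.09 in wild-type tissue. Day 14 levels were 10.66, 10.65, 10.13, 10.71 and 9.85 in shTGFb tissue, against 10.89, 11.14, 9.77, 10.63 and 10.70 in wild-type tissue. The groups overlapped on both days, with 95% intervals of the difference of -0.40 to 0.50 and -0.67 to 0.22, or -0.28 to 0.67 and -0.52 to 0.46 without the host-poor arrays.

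Acvrl1, a type I receptor known from endothelium, had lower means in shTGFb tissue. It had 5.50, 6.07 and 6.38 as lowest, median and highest level in shTGFb day 4 tissue, against 7.10, 6.13, 6.44 and 8.65 in wild-type tissue. The day 14 levels of Acvrl1 were 6.00, 5.90, 7.80, 5.75 and 7.56 in shTGFb tissue, against 6.57, 7.95, 7.74, 6.00 and 8.53 in wild-type tissue. The groups overlapped on both days, and the highest level on each day was on a host-poor wild-type array. The differences were -1.08 ± 0.47 (limma adjusted p = 0.506) and -0.76 ± 0.46, and they were -0.55 ± 0.44 and -0.17 ± 0.45 without these arrays. Acvrl1 was above all other 35 arrays on the 3 host-poor arrays, where 4 of the 5 measured blood endothelial markers, Pecam1, Vwf, Tek and Flt1, were not detected, while the fifth, Cdh5, was detected on at least 1 of them.

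Acvr1b, a type I activin receptor, varied within groups more than between them. Its level ran from 5.88 to 9.05 in shTGFb day 4 tissue, against 5.26, 8.85, 8.96 and 7.53 in wild-type tissue, and at day 14 it was 8.58, 8.71, 6.54, 9.30 and 7.52 in shTGFb tissue, against 8.69, 6.80, 7.81, 8.88 and 7.17 in wild-type tissue. The differences were 0.40 ± 0.78 and 0.26 ± 0.77, and 0.36 ± 0.87 and -0.33 ± 0.90 without the host-poor arrays. Acvr2b, a type II activin receptor, was the only 1 of 41 genes higher without overlap at day 14 (0.111% of all genes). Lower without overlap were 0 of 41 (0.162% of all genes). It read 9.39, 9.47, 9.38, 9.25 and 9.23 in shTGFb tissue, against 9.13, 9.13, 9.07, 9.21 and 8.97 in wild-type tissue, a difference of 0.24 ± 0.22, and at day 4 the difference was -0.34 ± 0.22. With the host-poor arrays left out these were 0.21 ± 0.25 and -0.17 ± 0.24. Of the other receptors, Tgfbr3, the co-receptor betaglycan, differed by 0.70 and 0.71, Bmpr1a by 0.48 and -0.25, Acvr1 by -0.31 and -0.10, Acvr1c by 0.27 and 0.39, and the type II receptor Bmpr2 by -0.03 and -0.36 at day 4 and day 14. All their groups overlapped. When those arrays were left out, Tgfbr3 differed by 0.47 and -0.03, Bmpr1a by 0.50 and -0.21, Acvr1 by -0.19 and 0.08, Acvr1c by 0.15 and -0.22, and Bmpr2 by -0.06 and -0.21, with Tgfbr3, Acvr1 and Acvr1c turned in sign at day 14.

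Of the Smads, Smad3, a carrier of TGF-beta and activin signals, had a lowest, median and highest level of 9.60, 9.83 and 10.10 in shTGFb day 4 tissue, against 10.34, 9.70, 10.11 and 10.47 in wild-type tissue. Smad3 levels at day 14 were 10.32, 9.69, 10.02, 9.65 and 10.26 in shTGFb tissue, against 9.94, 9.95, 10.01, 9.49 and 10.17 in wild-type tissue. The groups overlapped, and the 95% intervals were -0.74 to 0.13 and -0.36 to 0.51, or -0.70 to 0.29 and -0.34 to 0.68 without the host-poor arrays. Smad1, Smad2 and Smad5 differed by 0.55, 0.26 and -0.26 at day 4 and by -0.07, -0.27 and -0.27 at day 14. Leaving out the host-poor arrays gave 0.49, 0.22 and -0.18 at day 4 and -0.10, -0.14 and -0.18 at day 14. None of the 4 Smads lay outside the range of the other arrays on all 3 host-poor arrays.

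Smurf1, a ubiquitin ligase that marks BMP Smads and receptors for degradation, was lower in shTGFb day 4 tissue, with 5.60, 5.94 and 6.27 as lowest, median and highest level, against 6.62, 6.15, 6.63 and 7.83 in wild-type tissue. Wild-type array 2 fell within the shTGFb range. The difference was -0.85 ± 0.33 (limma adjusted p = 0.506), and -0.51 ± 0.28 without the host-poor array. Smurf1 levels at day 14 were 6.17, 6.24, 6.96, 5.94 and 7.32 in shTGFb tissue, against 6.31, 7.98, 7.01, 5.56 and 7.53 in wild-type tissue, with a difference of -0.35 ± 0.33, and 0.23 ± 0.29 without the host-poor arrays. Both of its probes gave the same direction on each day.

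Tgif2, a homeodomain repressor of Smad targets, had 4.71, 5.18 and 5.74 as lowest, median and highest level in shTGFb day 4 tissue, against 7.24, 4.49, 5.30 and 7.62 in wild-type tissue. Tgif2 levels at day 14 were 5.12, 4.55, 6.22, 4.39 and 7.28 in shTGFb tissue, against 5.45, 7.48, 6.73, 4.54 and 7.69 in wild-type tissue. The wild-type arrays split into high and low values on both days. Such high values also stood in other groups, with 7.00 and 7.39 on shVEGF day 4 arrays 3 and 5 and 6.88 on control array 6. The differences were -0.90 ± 0.66 and -0.87 ± 0.65. They were -0.41 ± 0.67 and -0.06 ± 0.69 without the host-poor arrays. Its relative Tgif1 differed by 0.05 and -0.66, and by 0.34 and -0.10 without these arrays.

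**Figure D3:**
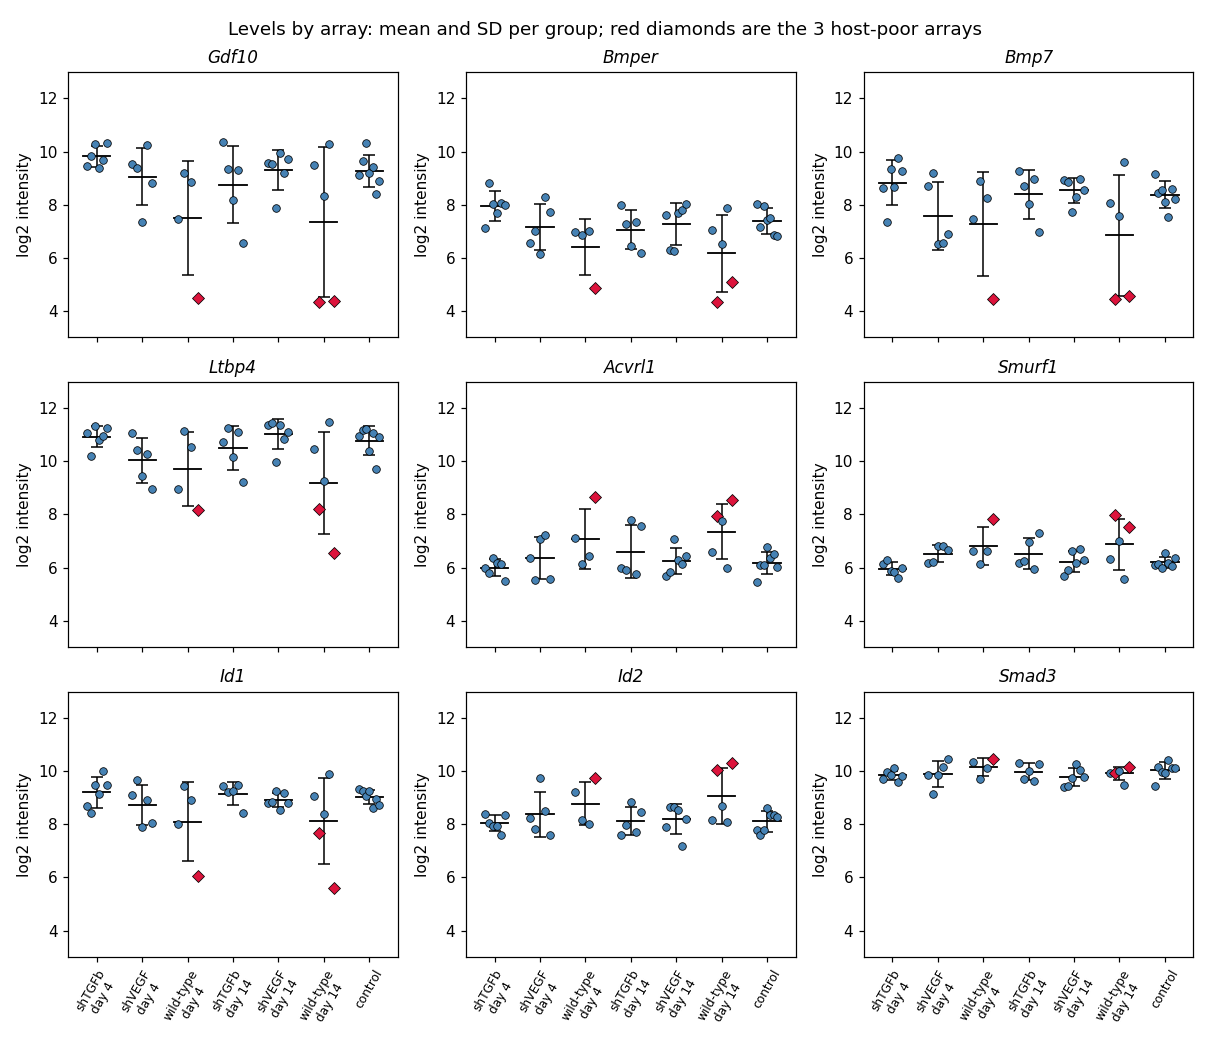
Log2 intensity of 9 genes on each array, by line and day, with horizontal bars at the group mean and vertical bars for the SD. Red diamonds are the host-poor arrays. Gdf10, Bmper, Bmp7 and Ltbp4 are lowest on these arrays, Acvrl1 and Smurf1 highest, and Smad3 reads 10.47, 9.95 and 10.17 there, where the other arrays reach 10.47.

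Among the extracellular antagonists, Bmper, a secreted protein that binds BMPs, had a lowest, median and highest level of 7.11, 8.01 and 8.83 in shTGFb day 4 tissue, against 6.95, 6.86, 7.00 and 4.84 in wild-type tissue. No array overlapped, and the nearest were the lowest shTGFb array at 7.11 and wild-type array 3 at 7.00. The difference was 1.54 ± 0.54 (limma adjusted p = 0.506), and 1.02 ± 0.45 without the host-poor array. Bmper levels at day 14 were 7.98, 7.28, 6.45, 7.36 and 6.16 in shTGFb tissue, against 7.04, 4.33, 6.51, 7.87 and 5.10 in wild-type tissue. These groups overlapped, and the difference was 0.88 ± 0.53 with all arrays and -0.09 ± 0.47 without the host-poor arrays.

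Fst, follistatin, which neutralises activins, had 7.11, 8.41 and 9.0 as lowest, median and highest level in shTGFb day 4 tissue, against 6.17, 9.36, 8.61 and 4.58 in wild-type tissue. Fst levels at day 14 were 8.38, 9.02, 7.35, 9.48 and 6.16 in shTGFb tissue, against 8.87, 4.61, 6.95, 8.35 and 4.34 in wild-type tissue. The groups overlapped, and the differences of 1.09 ± 0.91 and 1.45 ± 0.89 were 0.22 ± 0.83 and 0.02 ± 0.86 without the host-poor arrays, on which Fst was not detected. Grem1, gremlin, a BMP antagonist of fibroblasts, ran from 5.57 to 8.08 in shTGFb day 4 tissue, against 5.56, 8.38, 8.00 and 4.62 in wild-type tissue, a difference of -0.06 ± 0.92. At day 14 Grem1 had 6.15, 7.93, 4.73, 8.57 and 4.95 in shTGFb tissue, against 8.27, 4.46, 5.53, 6.79 and 4.81 in wild-type tissue, a difference of 0.49 ± 0.90. The Grem1 differences were -0.74 ± 0.95 and -0.40 ± 0.98 without the host-poor arrays. Fstl3, a relative of follistatin, differed by -0.35 ± 0.42 at day 4 and 0.97 ± 0.41 at day 14, and by -0.41 and 0.25 without the host-poor arrays.

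The Id genes, inhibitors of basic helix-loop-helix factors, differed from each other in sign. Id1 had 8.43, 9.30 and 10.01 as lowest, median and highest level in shTGFb day 4 tissue, against 7.99, 9.43, 8.91 and 6.04 in wild-type tissue. Id1 levels at day 14 were 9.44, 9.20, 9.24, 9.49 and 8.42 in shTGFb tissue, against 9.08, 7.68, 8.39, 9.88 and 5.61 in wild-type tissue. The groups overlapped, and the differences of 1.11 ± 0.54 and 1.03 ± 0.53 were 0.42 ± 0.36 and 0.04 ± 0.38 without the host-poor arrays.

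Id2 had the opposite sign, with 7.59, 7.98, 8.85, 7.71 and 8.45 in shTGFb day 14 tissue, against 8.17, 10.03, 8.70, 8.08 and 10.31 in wild-type tissue. The 2 highest values were the host-poor arrays, and the difference was -0.94 ± 0.41 (limma adjusted p = 0.330) with them and -0.20 ± 0.38 without. Id4 ran from 5.99 to 8.30 in shTGFb day 4 tissue, against 5.86, 7.67, 6.08 and 4.85 in wild-type tissue, a difference of 1.05 ± 0.65. At day 14 Id4 had 6.71, 6.10, 6.09, 6.50 and 4.87 in shTGFb tissue, against 5.93, 4.39, 5.25, 8.64 and 4.36 in wild-type tissue, a difference of 0.34 ± 0.63. The Id4 differences were 0.63 ± 0.64 and -0.55 ± 0.66 without the host-poor arrays. Id3 differed by 0.56 ± 0.33 at day 4 and -0.57 ± 0.32 at day 14, and by 0.50 ± 0.32 and -0.11 ± 0.33 without the host-poor arrays. At day 4 Id2 differed by -0.74 ± 0.42, and by -0.42 ± 0.37 without the host-poor array.

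Of the others, Fstl1, a secreted glycoprotein of mesenchymal cells, had a lowest, median and highest level of 11.52, 11.90 and 12.46 in shTGFb day 4 tissue, against 10.15, 11.38, 11.49 and 8.38 in wild-type tissue, with no overlap. The difference was 1.59 ± 0.72 (limma adjusted p = 0.506), and 0.93 ± 0.47 without the host-poor array. At day 14 Fstl1 had 12.50, 11.69, 11.25, 11.56 and 9.82 in shTGFb tissue, against 11.57, 7.70, 11.39, 12.41 and 7.19 in wild-type tissue. The groups overlapped, with differences of 1.31 ± 0.70 and, without the host-poor arrays, -0.43 ± 0.48. Bmp1, a procollagen protease, differed by 0.97 and 0.88, Tgfbrap1, a receptor-associated protein, by 0.28 and 0.48, and the kinase gene Bmp2k by -0.22 and 0.11. With those arrays left out Bmp1 differed by 0.60 and 0.11, Tgfbrap1 by 0.01 and 0.05, and Bmp2k by -0.10 and 0.0050.

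The difference between days of shTGFb against wild type was tested for every gene, and 0 of 41 passed in limma (0% of all genes). At an unadjusted p under 0.05 there were 2, Fstl3 at 1.33 ± 0.59 and Id3 at -1.14 ± 0.46, where 1.39% of all genes reached that level. Without the host-poor arrays these were 0.66 ± 0.59 and -0.61 ± 0.46, and the 2 at that level were Gdf10 at -1.92 ± 0.88 and Ltbp3 at -0.63 ± 0.30 (0.981% of all genes). Within the shTGFb line, day 14 against day 4 gave 0 calls and 3 genes at an unadjusted p under 0.05, Ltbp3, the BMP receptor Bmpr1a at -0.85 ± 0.32 and Smad1 at -0.64 ± 0.30 (4.86% of all genes). When the host-poor arrays were left out of the shared variance estimate, 8 were at that level (6.53% of all genes), 6 lower at day 14 (these 3 with Bmper, Gdf10 and Tgif1) and 2 higher (Fstl3 and Smurf1), and 0 were called.

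**Figure D4:**
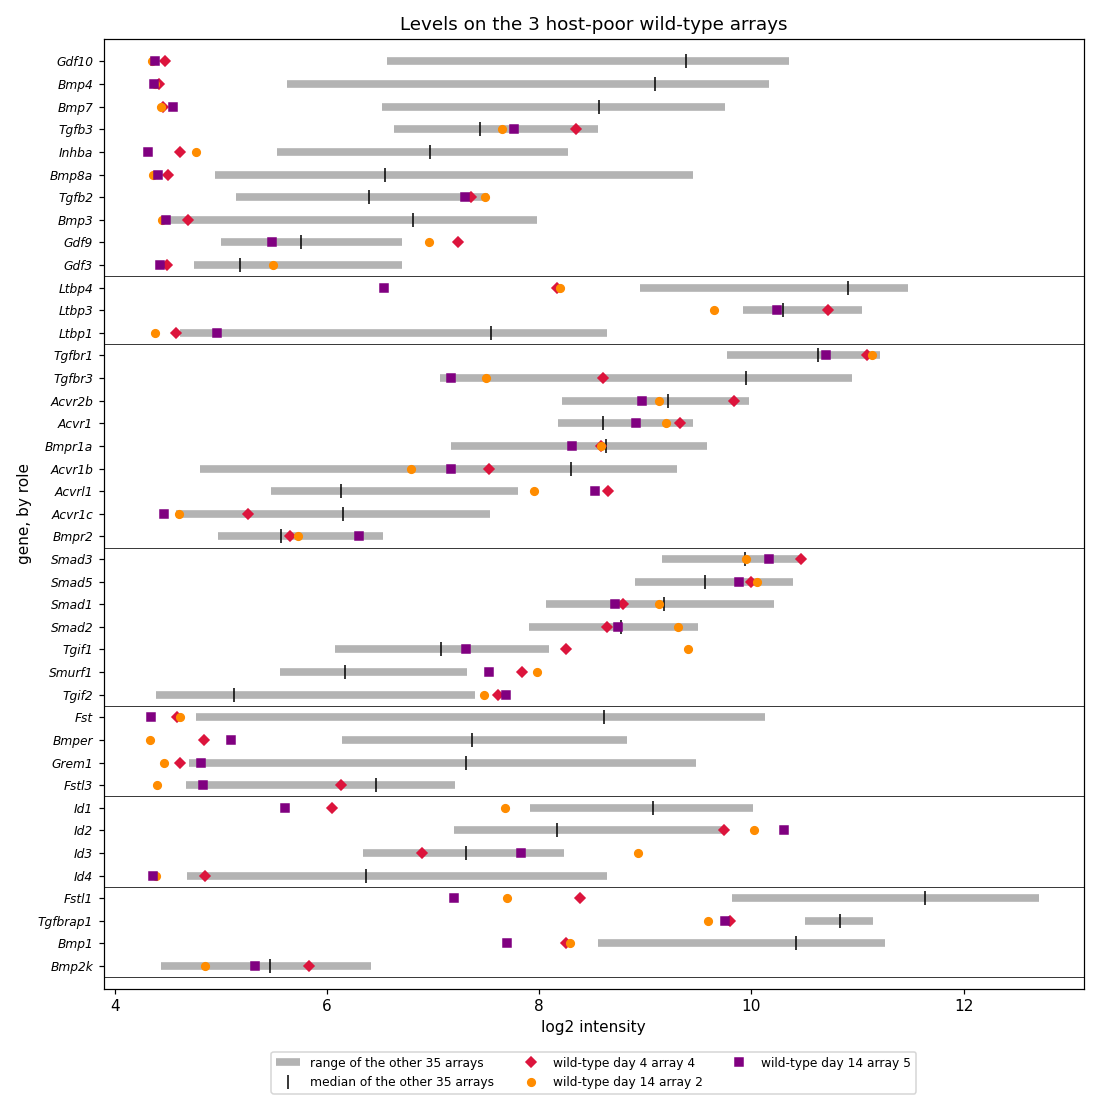
Each row is a gene by role. Gray bars give the range and black ticks the median of the other 35 arrays in log2 intensity, and colored symbols the 3 host-poor wild-type arrays. Of the ligands, 5 of 10 lie below the bar on all 3 arrays, while 0 of 9 receptors do.

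On all 3 host-poor arrays, 12 of 41 genes (29.3%) were below every other array, as were 14.5% of all 9890 genes, and 4 of 41 (9.76%) were above every other array, as were 8.95% of all genes. The 12 were the ligands Gdf10, Bmp4, Bmp7, Bmp8a and Inhba, the antagonists Fst and Bmper, Ltbp4, Id1, Fstl1, Bmp1 and Tgfbrap1. All 5 of these ligands and both antagonists were undetected on all 3 arrays, with levels of 4.32 to 5.10. The 4 above were Acvrl1, Id2, Smurf1 and Tgif2. By role, 5 of 10 ligands, 2 of 4 antagonists, 1 of 3 latent binding proteins, 1 of 4 Id genes and 3 of 4 others were below, and 0 of 9 receptors and 0 of 7 Smads, Smurfs and Tgifs. The roles were not compared by a test.

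Set against control tissue, shTGFb tissue gave 0 calls at day 4, with 2 genes at an unadjusted limma p under 0.05, Bmp8a and Ltbp3 (2.99% of all genes), and 0 calls at day 14, with 0 genes at that level (1.26%). When the host-poor arrays were left out of the shared variance estimate, 4 genes were at that level at day 4 (4.18% of all genes), Bmp8a, Ltbp3, Id3 and Tgif1, all higher in shTGFb tissue, and 1 at day 14 (2.05%), Bmp8a at 1.26 ± 0.60. Wild-type tissue against the same control arrays gave 0 calls and 1 gene, Gdf10 at -1.78 ± 0.87, at day 4 (1.97% of all genes), and 0 without the host-poor array (0.0506%). At day 14 it gave 0 calls and 18 of 41 genes at that level, 5 higher and 13 lower, where 25.1% of all genes reached it. Without the host-poor arrays that count was 0, and 82 of all 9890 genes were at that level. Leaving out wild-type day 14 array 1 alone gave 7 calls (14.6% of all genes called) and leaving out array 4 alone gave 13 (13% of all genes called), among them Ltbp4 at -1.91 and -2.17, Gdf10 at -2.45 and -2.65 and Acvrl1 at 1.36 and 1.51. Either omission raises the share of host-poor arrays in the group to 2 of 4. Leaving out array 3 alone raises it to the same share and gave 0 calls. The cause of the calls was not tested.

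The shVEGF line shares its wild-type arrays with the comparisons above. At day 14 it gave 0 calls against wild type and 16 of 41 genes at an unadjusted limma p under 0.05, 13 higher and 3 lower (25.8% of all genes), and 0 without the host-poor arrays (1.25%). Without wild-type array 1 or array 4 alone, 5 (12.5% of all genes called) and 14 (16.5%) were called. At day 4 shVEGF gave 0 calls and 0 genes at that level (2.53%). Directly against shVEGF tissue, which needs no wild-type array, shTGFb tissue gave 0 calls on both days. There were 2 genes, Bmp8a and Ltbp3, at an unadjusted p under 0.05 at day 4 (4.29% of all genes) and 0 at day 14 (0.768%). When the host-poor arrays were left out of the shared variance estimate, 8 genes were at that level at day 4 (7.54% of all genes): Ltbp3, Bmp8a, Bmp7 at 1.25 ± 0.49, Bmp4 at 1.57 ± 0.64, Id4 at 1.19 ± 0.55, Ltbp4 at 0.89 ± 0.43, Bmper at 0.81 ± 0.39 and Smurf1 at -0.57 ± 0.24.

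Of the settings tried, only array weights gave calls for shTGFb against wild type. With limma's array weights, which weight each array by its estimated precision, 7 of 41 genes passed for shTGFb against wild type at day 4 (8.58% of all genes called). At day 14, 0 of 41 passed, as did 0 of all genes. At day 4, at limma adjusted p of 0.00745 to 0.0404, Ltbp3 rose by 0.63 ± 0.15, Bmpr1a by 0.76 ± 0.19, Smad1 by 0.76 ± 0.20, Bmp8a by 1.66 ± 0.51 and Bmper by 0.93 ± 0.29, while Smurf1 fell by 0.74 ± 0.18 and Bmp2k fell by 0.69 ± 0.22. Bmp2k was near background, detected on 3 of the 6 shTGFb and 3 of the 4 wild-type arrays of that day. Under these weights wild-type day 4 array 3 carried 7.06 and arrays 1, 2 and 4 carried 0.486, 0.848 and 0.156, so the wild-type mean rested mostly on 1 array, and the weight estimation stopped before it converged. With weights estimated without the host-poor arrays, a setting chosen after seeing the data, 0 of 41 passed.

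Other genes of the pathway, 43 measured of a list of 60 targets, inhibitors and matrix partners outside the name rule, gave 0 calls on both days. Of them 28 were higher in shTGFb tissue at day 4, with a median of 0.30, and 33 at day 14, with a median of 0.24. Largest at day 4 were the matrix genes Col1a1 at 2.89 ± 1.42, Dcn at 2.80 ± 1.45 and Bgn at 2.42 ± 1.17, and at day 14 Dcn at 3.50 ± 1.43, Col1a1 at 3.41 ± 1.39 and the contractile gene Acta2 at 3.20 ± 1.23. Without the host-poor arrays the day 4 values were 0.82, 0.50 and 0.52 and the day 14 values -0.09, -0.05 and -0.05, and the medians were 0.13 and -0.03. With all arrays, 8 of the 43 were at an unadjusted limma p under 0.05 at day 4 (8.2% of all genes) and 9 at day 14 (14.2%). Without the host-poor arrays 1 was at that level at day 4 (1.64% of all genes) and 0 at day 14 (0.243%). The 1 gene was Pmepa1, a TGF-beta target that restrains Smad signalling, at 1.00 ± 0.36, named here after its value was seen.

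The 5 genes outside the family most like it, by Pearson correlation over 38 arrays with the mean of the 41 standardised genes, were Ank3 at 0.932, Cgnl1 at 0.931, Fcho2 at 0.928, Sgk1 at 0.927 and Abi3bp at 0.918. Over the 35 arrays without the host-poor ones the values were 0.909, 0.938, 0.924, 0.887 and 0.927. These are descriptions over arrays that share normalization and tissue make-up, chosen from 9849 genes.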

How the data were processed

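The deposited non-normalized table holds, for 45272 probes, a signal intensity on the linear scale and a detection p-value for each of 38 arrays, and 0 of its columns lacked a sample. The deposited normalized table holds log2 intensity for 16247 probes and equals the quantile-normalized raw signals on a log2 scale, with no background correction, as a comparison of both tables showed. BeadStudio and limma appear in the submitters' processing notes; no version is given in the sources used here. Per the labels' protocols, RNA was extracted with Trizol and labelled with biotin.

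Intensities were background-corrected with limma 3.58.1 in R 4.3.3 (normexp on detection p-values, offset 16), quantile-normalized and taken as log2. A probe was kept when 4 or more arrays had a detection p under 0.05, and each gene took its brightest probe, giving 9890 genes. Probes with 1 symbol numbered 14836, with several 5 and with none 1406. Of 13 superfamily genes with several probes, 3 (Bmp1, Bmpr1a and Smad3) had probes of both signs for shTGFb against wild type at day 14 and 0 at day 4. All 41 genes matched RefSeq by Entrez identifier. Detected probes per array ranged from 16519 to 22897, and the number of arrays limits precision.

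One limma fit with 7 group means over 38 arrays gave 12 comparisons, with Benjamini-Hochberg adjustment over all genes. The 95% intervals come from that fit. The fit was tested on simulated data with changes added to the shTGFb day 4 arrays. Against wild type it called 34.3% of changes of 1 log2 unit, 74.6% of 2 and 92.4% of 4, with 6 other calls. The simulated noise was independent between genes and had the same spread in all groups, whereas the real wild-type groups hold the host-poor arrays. These rates therefore cannot be carried over to the real arrays. A count of 0 calls does not exclude differences of 1 log2 unit or larger ones, and Gdf10 at 2.32 was not called. Full values were given per role for the gene with the highest mean and those with the largest difference on each day, with and without the 3 arrays. For shTGFb day 4 tissue these were the lowest and highest levels, mostly with the median. Further genes given in full at day 14 only (Inhba, Acvr2b, Id2) were chosen after their values were seen. Alternatives were other background, scaling, filter, probe and fit settings, array weights, a replicate block and leaving out arrays. The genes, lists and arrays to leave out were chosen with earlier results of these data known.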

Additional observations from a re-analysis of the deposited data

Results flagged for a closer look

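Of 119 sets of arrays, 17 genes in 7 groups each, 7 held an array far from the rest of its group by Dixon's criterion, which marks about 5% of groups by chance. Control array 6 was the one marked for 3 genes: Acvr1b read 4.81 with the nearest control array at 7.42, Fst read 6.95 with the nearest at 8.53, and Tgif2 read 6.88 with the nearest at 5.18. Bmper read 4.84 on wild-type day 4 array 4, a host-poor array, with the nearest array at 6.86. Tgfbr1 read 11.21 on shTGFb day 4 array 2, with the nearest at 10.69. Id1 read 8.42 on shTGFb day 14 array 5, with the nearest at 9.20. Gdf10 read 7.87 on shVEGF day 14 array 3, with the nearest at 9.19.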

How the results depend on the processing

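Apart from array weights, the counts of called superfamily genes were 0 in all 12 comparisons under the other settings of background, scaling, filter, probe choice, samples fitted and block, and without the 3 host-poor arrays. Not all of these settings were distinct. Dropping the filter repeated the main fit, as the filter removed 0 named probes, and the deposited normalized table repeated the fit without background correction. Array weights gave 7 for shTGFb against wild type at day 4, 2 (Bmp8a and Tgfb2) for shTGFb day 4 against control and 1 (Ltbp3) for shTGFb day 14 against day 4. Array weights without the host-poor arrays gave calls only for the same 2 genes against control. The cause was not tested. Leaving out single arrays gave 0 to 13 calls for wild type day 14 against control and 0 to 14 for shVEGF against wild type at day 14, and 0 in the other 10 comparisons. Whether the array numbers pair the samples is not stated in the labels. Correlations of same-numbered deviations from group means ran from -0.527 to 0.198 at day 4 and from -0.387 to 0.669 at day 14. Arrays with different numbers were not correlated for reference, so these values cannot decide it. With a replicate block, counts of calls stayed at 0, the median at day 4 was 0.37 and at day 14 0.26, and Grem1 at day 4 turned to 0.37. Counts at an unadjusted limma p under 0.05 moved when only the groups compared were fitted. At day 14 they fell from 16 to 4 for shVEGF against wild type and from 18 to 12 for wild type against control. For shTGFb day 4 against control they rose from 2 to 8. Shares of all genes were not counted for that setting.

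Other directions turned as follows, and the causes were not tested. Scaling to the 75th percentile moved the median of all genes to -0.17 at day 4 and -0.22 at day 14, and gave Tgfbr1 at day 4 -0.19, Id4 at day 14 -0.00163 and Smad3 at day 14 -0.18. Averaging all probes gave Smad3 at day 14 -0.11. Array weights gave at day 4 Tgfbr1 -0.13, Acvr1b -0.20 and Fst -0.0166, and at day 14 Tgfbr1 0.0436 and Smad3 -0.0799. Without the host-poor arrays the day 14 values of the genes given in full were Acvr1b -0.33, Fstl1 -0.43, Gdf10 -0.61, Bmp8a -0.0840, Bmp7 -0.0211, Bmper -0.0905, Grem1 -0.40, Id4 -0.55 and Smurf1 0.23. Array weights without these arrays gave at day 14 Gdf10 -0.11, Grem1 -0.40, Ltbp3 0.00812 and Smad3 -0.0846. Leaving out single arrays gave at day 4 Tgfbr1 -0.0858 to 0.20, Acvr1b -0.40 to 0.84 and Grem1 -0.74 to 0.52, and at day 14 Acvr1b -0.0296 to 0.66, Grem1 -0.0324 to 1.07, Ltbp3 -0.20 to 0.15 and Smad3 -0.0321 to 0.16.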
